A study of Homo sapiens with 3 samples.

Results

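The 54 genes described here encode proteins that find and mend damaged DNA. They were chosen by name as a set of DNA repair genes in 10 pathways, by a rule that used no measured value but with earlier results of these data known, and all 54 were found among the 20163 protein-coding genes of the annotation. H2087, an established cell line from a human lung adenocarcinoma, was grown in culture without treatment, and its chromatin was immunoprecipitated with antibodies to histone marks and sequenced. The labels describe 3 libraries, which were 1 for histone H3 trimethylated at lysine 4 (H3K4me3), 1 for histone H3 acetylated at lysine 27 (H3K27ac) and 1 of input chromatin, which was not analysed here. Each mark was thus a single library without a replicate, and every value below is a description with no test between conditions. At their canonical starts, 6 of 6 epithelial genes, EPCAM, CDH1, KRT7, KRT8, KRT18 and KRT19, carried both marks, as did NKX2-1, a lung lineage factor. The lung epithelial genes NAPSA, SFTPB and SFTPC carried neither, nor did 2 blood genes (PTPRC and CD3E) or 3 fibroblast genes (COL1A1, COL1A2 and DCN).

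Cells repair DNA by several routes that are matched to the lesion. Base excision repair removes single altered bases, nucleotide excision repair cuts out bulky lesions such as those made by ultraviolet light, and mismatch repair corrects errors of replication. Breaks through both strands are sensed by checkpoint kinases and are joined either end to end or by homologous recombination with a sister chromatid, and the Fanconi anaemia pathway unhooks crosslinks between the strands. H3K4me3 is a histone mark found mainly on the nucleosomes beside active or poised gene starts, and H3K27ac is found at active promoters and enhancers.

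The start of a gene was its outermost annotated 5′ end, called the outer start, and it was called marked when the edge of a peak lay within 1 kb. H3K4me3 peaks were found at 27 of the 54 starts, a share of 50% with an exact 95% interval of 36.1 to 63.9%, beside 38.2% of all protein-coding starts. H3K27ac peaks were found at 18 starts (33.3%, 21.1 to 47.5%), beside 23.6% of all protein-coding starts. These intervals are Clopper-Pearson intervals and cover counting error over the genes only, and both contain the share over all genes. Both marks occurred at 13 starts (24.1%, 13.5 to 37.6%), H3K4me3 without H3K27ac at 14 (25.9%, 15 to 39.7%) and H3K27ac without H3K4me3 at 5 (9.26%, 3.08 to 20.3%). Over all protein-coding starts these shares were 18.6%, 19.6% and 4.99%, each inside the interval of the repair genes. Neither mark was found at 22 repair gene starts (40.7%, 27.6 to 55%), beside 56.8% of all protein-coding starts, which lay just above that interval. The lists hold peaks and no read counts, so depth is unknown, and a start with no peak may simply have had too few reads to call one.

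**Figure D1:**
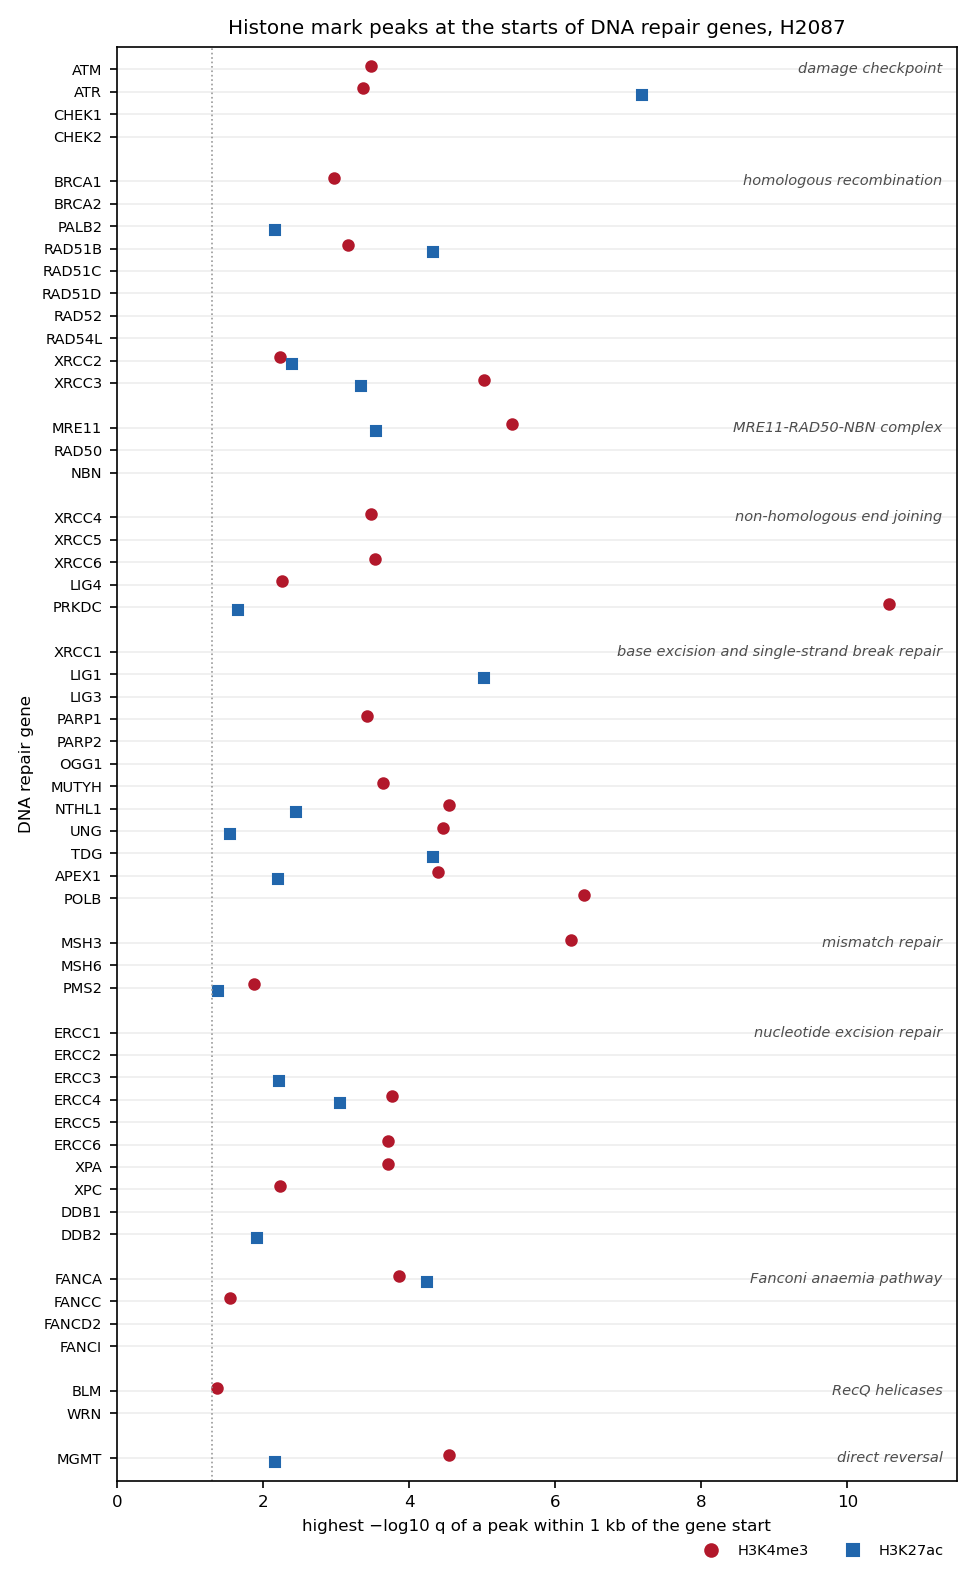
Highest −log10 q of a peak within 1 kb of the outer start of each of the 54 DNA repair genes, ordered by pathway, with H3K4me3 as red circles and H3K27ac as blue squares. The dotted line marks a q of 0.05, rows without a symbol are the 22 starts with neither mark, and PRKDC stands at the right end for H3K4me3 and ATR for H3K27ac.

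Each peak carries a value in the deposited lists that was read as −log10 q, the strength of the call within that list, where a larger value means a smaller false discovery rate. At the 27 repair gene starts with H3K4me3 the highest value ran from 1.37 at BLM to 10.6 at PRKDC, with a median of 3.64, beside 3.76 over the 7705 marked protein-coding starts. At the 18 starts with H3K27ac it ran from 1.39 at PMS2 to 7.19 at ATR, with a median of 2.42, beside 3.05 over 4753 marked starts. With a limit of 500 bp in place of 1 kb, the H3K27ac median was 3.2 over 14 repair gene starts and 3.05 over all marked starts, so its place relative to other genes turned with the limit. Values in the upper part of the whole list, at or above its median, were found at 21 of the 27 starts with H3K4me3 (77.8%, 57.7 to 91.4%, beside 70.1% of all marked starts) and at 8 of the 18 with H3K27ac (44.4%, 21.5 to 69.2%, beside 63.2%), and both intervals contain the share over all marked starts. Widths were close to those of other genes, with medians of 399 bp against 411 bp for H3K4me3 and 310 bp against 327 bp for H3K27ac.

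The base composition of the promoters is shown by a few of them, as 300-base windows that run from 250 bases before the start to 50 bases from the start on, read 5′ to 3′ on the strand of the gene from the GRCh37 primary assembly (hg19). Capitals mark each CpG, the dinucleotide at which DNA can be methylated. MSH3, which detects larger loops of mispaired bases, is shown as an example of a high H3K4me3 value, 6.22, below those of PRKDC (10.6) and POLB (6.39), ATR, the kinase that senses single-stranded DNA, for the highest H3K27ac value of 7.19, and XRCC3, a recombination protein, for the widest H3K4me3 peak of 893 bp. RAD51D, another recombination protein, had neither mark and is shown for a very low CpG content among such starts. MSH6, which recognises single mismatches, is shown at its outer start, which had neither mark, and at the start of its canonical transcript, which had H3K4me3. The examples were chosen by their values, and the MSH6 pair was added after its values were seen.
MSH3, chr5:79950221-79950520, plus strand: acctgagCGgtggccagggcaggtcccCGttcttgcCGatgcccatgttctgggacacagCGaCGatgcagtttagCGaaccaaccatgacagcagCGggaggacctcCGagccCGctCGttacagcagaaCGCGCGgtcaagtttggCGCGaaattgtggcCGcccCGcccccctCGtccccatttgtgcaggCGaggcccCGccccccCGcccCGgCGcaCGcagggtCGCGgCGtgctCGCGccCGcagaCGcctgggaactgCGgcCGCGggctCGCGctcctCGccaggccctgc
ATR, chr3:142297526-142297825, minus strand: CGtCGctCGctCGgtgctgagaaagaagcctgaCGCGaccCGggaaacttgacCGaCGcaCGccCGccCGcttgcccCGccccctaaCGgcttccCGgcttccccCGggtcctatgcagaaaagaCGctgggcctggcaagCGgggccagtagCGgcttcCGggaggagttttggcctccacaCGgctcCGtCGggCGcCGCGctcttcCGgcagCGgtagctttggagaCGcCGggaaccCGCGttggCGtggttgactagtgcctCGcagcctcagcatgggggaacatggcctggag
XRCC3, chr14:104181792-104182091, minus strand: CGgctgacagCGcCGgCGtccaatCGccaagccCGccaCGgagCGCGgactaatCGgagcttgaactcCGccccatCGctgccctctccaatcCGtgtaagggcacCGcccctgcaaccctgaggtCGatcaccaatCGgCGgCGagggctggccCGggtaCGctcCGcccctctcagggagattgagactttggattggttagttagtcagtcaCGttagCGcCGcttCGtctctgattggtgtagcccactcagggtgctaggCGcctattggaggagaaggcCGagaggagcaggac
RAD51D, chr17:33448492-33448791, minus strand: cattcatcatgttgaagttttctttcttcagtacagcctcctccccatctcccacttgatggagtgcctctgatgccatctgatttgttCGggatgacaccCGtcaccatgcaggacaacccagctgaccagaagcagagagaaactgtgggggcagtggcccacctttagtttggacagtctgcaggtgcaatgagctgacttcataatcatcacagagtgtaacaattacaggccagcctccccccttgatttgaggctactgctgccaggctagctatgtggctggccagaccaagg
MSH6 outer start, chr2:47922419-47922718, plus strand: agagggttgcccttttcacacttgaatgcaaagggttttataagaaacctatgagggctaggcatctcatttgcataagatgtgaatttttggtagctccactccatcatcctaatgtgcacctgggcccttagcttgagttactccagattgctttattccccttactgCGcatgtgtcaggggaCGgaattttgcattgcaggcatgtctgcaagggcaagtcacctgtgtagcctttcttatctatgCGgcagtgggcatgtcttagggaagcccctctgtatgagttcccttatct
MSH6 canonical start, chr2:48010034-48010333, plus strand: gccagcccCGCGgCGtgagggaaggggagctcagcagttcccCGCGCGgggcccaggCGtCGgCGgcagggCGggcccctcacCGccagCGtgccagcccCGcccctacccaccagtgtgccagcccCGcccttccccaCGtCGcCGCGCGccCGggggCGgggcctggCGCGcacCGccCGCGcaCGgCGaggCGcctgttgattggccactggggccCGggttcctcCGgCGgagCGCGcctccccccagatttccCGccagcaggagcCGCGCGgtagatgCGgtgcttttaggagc

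The CpG ratio, the number of CpG observed over the number expected from the counts of C and G, was 0.986 for MSH3 with 37 CpG, 0.971 for ATR with 34 and 0.898 for XRCC3 with 27. It was 1.03 for ERCC5, the nuclease that cuts on the 3′ side of a bulky lesion, which had no peak within 1 kb, so a CpG-rich window did not always come with a mark. RAD51D had 2 CpG and a ratio of 0.0992, and MSH6 had 3 at its outer start and 39 at its canonical start. Among the 54 outer windows, 42 had a ratio of at least 0.6 (77.8%, 64.4 to 88.0%), beside 58.0% of all protein-coding windows. H3K4me3 was found at 26 of those 42 starts and at 1 of the other 12, which was MUTYH. Over all genes the corresponding shares were 55.5% and 14.4%. The median ratio was 0.971 at the 13 starts with both marks, 0.834 at the 14 with H3K4me3 only and 0.617 at the 22 with neither, beside 0.843, 0.827 and 0.441 over all genes of these classes. In the windows of the canonical starts 51 of 54 reached 0.6, beside 13437 of 19881 over all genes. H3K4me3 was found at 30 of these 51 (58.8%), beside 57.3% of the 13437.

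**Figure D2:**
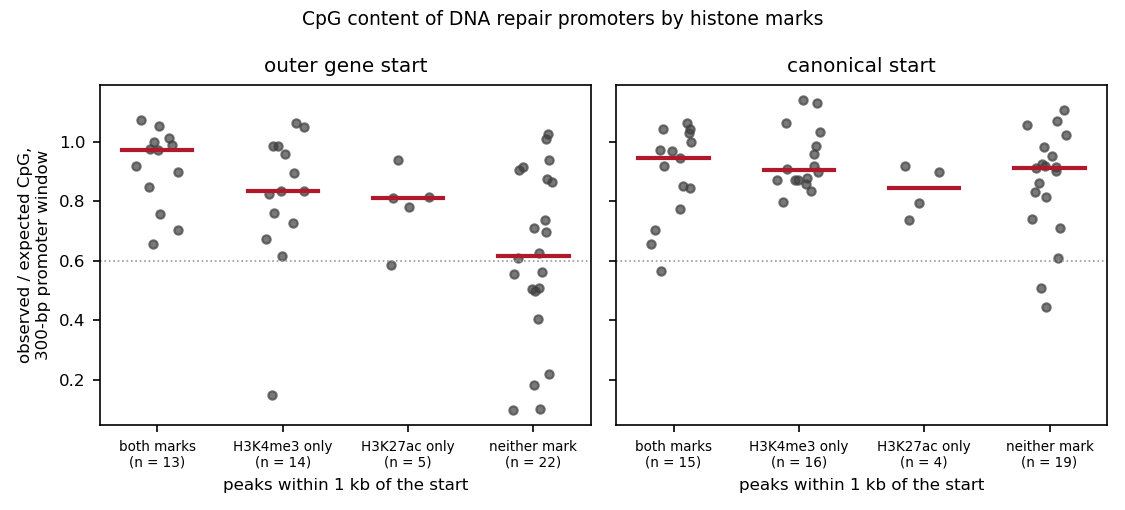
Observed over expected CpG in the 300-bp promoter window of each of the 54 DNA repair genes, by the marks within 1 kb of the start, for the outer start on the left and the canonical start on the right. Points are genes, bars are medians and the dotted line is a ratio of 0.6, and the genes below 0.3 with neither mark at the outer start are absent from that range at the canonical start.

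The damage checkpoint kinases were marked at 2 of 4 starts. ATR had an H3K4me3 peak of 742 bp at chr3:142296771-142297512, which overlaps coding exon 1, with a value of 3.37. An H3K27ac peak of 317 bp in the intron behind it lay wholly inside the H3K4me3 peak and reached the 98.2nd percentile of the H3K27ac list. ATM, the kinase that responds to broken ends, had H3K4me3 peaks on both sides, at 3.34 upstream and 3.48 in the gene, with 597 bp between the start and the nearest edge, and no H3K27ac peak within 148.5 kb. Its start lies 406 bp from that of NPAT on the opposite strand, so the upstream peak also fell in the neighbour. CHEK1, the kinase that acts behind ATR, had no peak within 1 kb, but an H3K4me3 peak began 1335 bp away. CHEK2, the kinase that acts behind ATM, had no H3K4me3 peak within 142 kb and no H3K27ac peak within 288 kb.

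Homologous recombination copies the intact sister to mend a break. Of its 10 genes, 3 carried both marks, 1 H3K4me3 only, 1 H3K27ac only and 5 neither. RAD51B, XRCC2 and XRCC3, which belong to the same family of recombination proteins, had both marks, with H3K4me3 values of 3.16, 2.23 and 5.02 and H3K27ac values of 4.32, 2.39 and 3.34. At XRCC3 an 893-bp H3K4me3 peak, at chr14:104180835-104181727, enclosed the 462-bp H3K27ac peak. At XRCC2 the marks lay on opposite sides of the start, with peak centres at -497 bp for H3K4me3 and 253 bp for H3K27ac, and shared no base. The remaining members of that family, RAD51C and RAD51D, had neither mark, and their nearest H3K4me3 peaks were 63.6 and 32.5 kb away.

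BRCA1, which prepares broken ends for recombination, had H3K4me3 only, with 2.97 at the outer start and 2.73 at the canonical start 44.9 kb further in, and no H3K27ac peak within 65.4 kb of the outer start. The 5′ region of BRCA1 has a near copy close by, the pseudogene BRCA1P1, and its reads may be split between the copies, so these values are uncertain. PALB2, the partner that joins BRCA1 to BRCA2, had H3K27ac only, in a peak of 194 bp over coding exon 1 with a value of 2.16. BRCA2, which loads the recombinase on DNA, had neither mark, with the nearest peak of either kind about 112 kb away, at 112.3 kb for H3K4me3 and 112.04 kb for H3K27ac. RAD52, an annealing protein, had none within 1 kb of either start, with H3K4me3 no closer than 236 kb, and carried 2 H3K27ac peaks near its 3′ end. RAD54L, a motor protein of recombination, had no peak within 1 kb of its outer start and an H3K4me3 peak 1416 bp away, which lay within 1 kb of its canonical start with a value of 2.23.

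The complex of MRE11, RAD50 and NBN binds broken ends and starts their processing. MRE11, its nuclease, had 3 H3K4me3 peaks within 1 kb of the start, with values of 1.55, 2.26 and 5.41, and an H3K27ac peak of 3.55. The strongest pair overlapped upstream of the start, beyond the start of ANKRD49, which lies 94 bp away. RAD50, the arm of the complex, had neither mark, and its nearest H3K4me3 and H3K27ac peaks were 58.6 and 55.3 kb from the start. NBN, which recruits ATM, had neither mark at the outer start. An H3K4me3 peak of 6.25 lay 1044 bp away and overlapped an H3K27ac peak of 3.32, both near the start of another gene, DECR1. At its canonical start, 18.6 kb further in, NBN had H3K4me3 at 5.28.

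Non-homologous end joining seals broken ends directly, and H3K4me3 was found at 4 of its 5 starts. PRKDC, the catalytic kinase subunit, had the highest H3K4me3 value of the 54 genes, 10.6 in a 742-bp peak over coding exon 1, which stood at the 98.9th percentile of the list. Its H3K27ac peak had a value of only 1.66. PRKDC starts 7 bp from MCM4, a replication gene on the opposite strand, and a weaker H3K4me3 peak of 3.56 lay on the MCM4 side. XRCC6, a subunit of the Ku ring that holds the ends, had H3K4me3 on both sides of the start, at 2.21 and 3.54, without H3K27ac. XRCC4, a scaffold of the ligation step, had H3K4me3 at 3.48 on the upstream side only, over TMEM167A, a gene on the opposite strand that starts inside XRCC4. LIG4, the ligase, had H3K4me3 at 2.26 at the outer start, which lies 24 bp from that of ABHD13, and none at its canonical start 2.83 kb further in. XRCC5, the other Ku subunit, had neither mark at the outer start and H3K4me3 at 6.39 at the canonical start 1.88 kb away.

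Base excision and single-strand break repair was the group with most members, 12 genes, of which 3 had both marks, 3 H3K4me3 only, 2 H3K27ac only and 4 neither. Among the glycosylases, which cut out an altered base, NTHL1 and UNG had both marks, MUTYH H3K4me3 only, TDG H3K27ac only and OGG1 neither. UNG, which removes uracil, was the only gene of the 54 with an H3K4me3 peak over the start base itself, in 615 bp with a value of 4.46, and 3.30% of all protein-coding starts were covered in this way. No repair gene had an H3K27ac peak over the start base (0 of 54, with an interval up to 6.60%), beside 1.47% of all starts. NTHL1, which removes oxidised pyrimidines, had 2 H3K4me3 and 3 H3K27ac peaks within 1 kb, with highest values of 4.54 and 2.45. MUTYH had an H3K4me3 peak of 3.64 in a CpG-poor window, upstream of its start and over TOE1, which starts inside MUTYH on the opposite strand.

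TDG, which removes thymine from mismatches, had H3K27ac at 4.32, upstream of its start and beyond the start of UQCC6. OGG1, which removes oxidised guanine, had no H3K4me3 peak within 16.9 kb. APEX1, the endonuclease that cuts the emptied site, carried both marks 763 bp into the gene, at 4.40 and 2.21, with 303 bp in common around coding exon 3. POLB, the polymerase that fills the gap, had H3K4me3 at 6.39 over coding exon 1 and no H3K27ac peak within 11.6 kb. LIG1, a ligase that also acts in replication, had H3K27ac at 5.03, the highest value after ATR, and no H3K4me3 peak within 101 kb. The H3K27ac peak lay upstream, 123 bp from the LIG1 start and so beyond the start of ZSWIM9, which is 77 bp away. PARP1, the main sensor of nicks, had H3K4me3 at 3.43 on the upstream side only, and PARP2, its relative, had neither mark, with the nearest H3K4me3 peak 10.4 kb away. XRCC1, the scaffold of nick repair, had neither mark at the outer start and no H3K27ac peak within 704 kb. At its canonical start XRCC1 had H3K4me3 at 2.97, in a peak that also lay near the start of another gene, PINLYP. LIG3, the partner ligase of XRCC1, had neither mark, with the nearest H3K4me3 peak 17.8 kb away.

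In mismatch repair, MSH3 had H3K4me3 at 6.22 and 4.07, in 2 peaks that both lay upstream of the start, and no H3K27ac peak within 9.70 kb. PMS2, an endonuclease of this pathway, carried both marks at the lowest values of any gene with both, 1.88 for H3K4me3 and 1.39 for H3K27ac. MSH6 had neither mark at its outer start, with the nearest peaks 39.9 and 39.7 kb away. At the canonical start 87.6 kb further in, in the CpG-rich window printed above, it had an H3K4me3 peak of 968 bp with a value of 5.61.

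In nucleotide excision repair 4 of 10 starts had H3K4me3, with values of 3.76 at ERCC4, a nuclease, 3.72 at ERCC6, which acts on stalled transcription, 3.72 at XPA, which verifies the lesion, and 2.23 at XPC, which finds it. ERCC4 was the only one of these with H3K27ac, at 3.05 in a 592-bp peak in the intron behind the start. ERCC3, a helicase that opens the DNA, had H3K27ac only, at 2.22 over coding exon 1. DDB2, which senses ultraviolet damage, had H3K27ac at 1.91, and an H3K4me3 peak lay 1051 bp away, just outside the limit. ERCC1, ERCC2, ERCC5 and DDB1 had neither mark at the outer start. ERCC1, the partner of ERCC4, and ERCC2, the other helicase, are neighbours on chromosome 19, and each was 190 kb from the nearest H3K4me3 peak. ERCC5 was 72.9 kb from the nearest. DDB1, the partner of DDB2, had neither mark within 5.53 kb of the outer start and both at the canonical start, at 3.21 and 3.04. Both of these peaks also lay near the start of another gene, TKFC, and cannot be assigned to either gene from their position.

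In the Fanconi anaemia pathway, FANCA, a subunit of the core ligase complex, had both marks upstream of its start, at 3.87 and 4.25. These peaks also lay near the start of another gene, SPIRE2, and cannot be assigned to either gene from their position. A weaker H3K4me3 peak of 2.56 lay in an intron of FANCA. FANCC, another subunit, had H3K4me3 only, at 1.55 at the outer start and none at the canonical start 109 kb away. FANCD2 and FANCI, the pair of proteins that the complex modifies, had neither mark. FANCD2 was 39.6 kb from the nearest H3K4me3 peak and FANCI 91.6 kb, but FANCI had an H3K27ac peak of 5.12 in an intron, centred 1758 bp downstream of its start. Among the RecQ helicases, which unwind recombination intermediates, BLM had H3K4me3 at 1.37, the weakest of the 27, and WRN had neither mark, with the nearest H3K4me3 peak 951 kb away. MGMT, which takes alkyl groups directly off guanine, had both marks, with H3K4me3 at 4.54 behind the start, H3K27ac at 2.16 in a peak centred at -954 bp, in front of it, and no shared base.

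The layout of peaks around the starts had a gap at the start itself, in the repair genes as in all genes. In steps of 100 bp, the share of the 54 genes under an H3K4me3 peak was highest at 24.1% 250 bp downstream and fell to 1.85% at 50 bp upstream. Over all protein-coding genes it was highest at 17.9% 350 bp downstream and 3.04% at 50 bp upstream. H3K4me3 peaks lay downstream only at 11 of the 27 marked starts, upstream only at 7 (XRCC2, XRCC4, PARP1, MUTYH, MSH3, ERCC6 and FANCC) and on both sides at 9. H3K27ac peaks lay downstream only at 10 of 18 starts, upstream only at 7 and on both sides at 1, which was NTHL1. This split by side was not counted over all genes. The H3K4me3 peak with the highest value was centred downstream at 18 of the 27 starts (66.7%), beside 74.8% of all marked starts. For H3K27ac it was centred downstream at 11 of 18 (61.1%), beside 68.7%. Where both marks occurred, they shared bases at 11 of 13 starts (84.6%), beside 83.6% of the 3746 such starts over all genes, and the median shared length was 287 bp beside 284 bp.

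**Figure D3:**
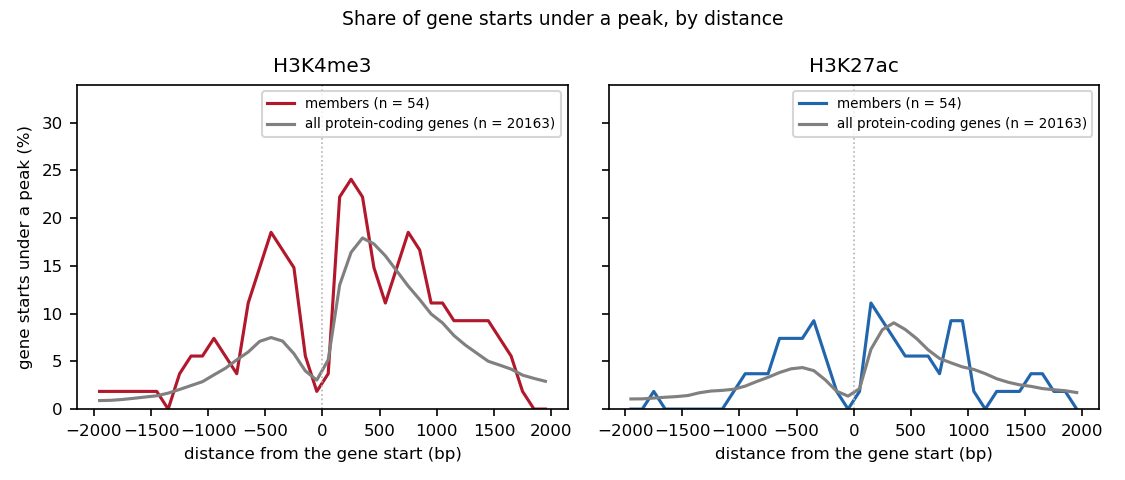
Share of gene starts under a peak in steps of 100 bp, by distance from the outer start in bp with downstream to the right, for the 54 DNA repair genes in colour and all 20163 protein-coding genes in grey. For H3K4me3 the repair genes reach 24.1% downstream of the start and fall to 1.85% just upstream of it.

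Many repair genes share their start region with another gene. In 25 of 54 (46.3%, 32.6 to 60.4%) a protein-coding gene on the opposite strand started within 1 kb, beside 13.3% of all protein-coding genes. The neighbour started upstream of the repair gene in 18 of these pairs and inside it in 7, so that the genes overlapped, as at CHEK2, BRCA2, RAD50, XRCC4, LIG3 and MUTYH. Of the recombination and checkpoint genes without any mark, CHEK2 faces HSCB at 383 bp, BRCA2 faces ZAR1L at 277 bp, RAD51C faces TEX14 at 518 bp, RAD51D faces FNDC8 at 93 bp and RAD52 faces ERC1 at 456 bp. RAD50 faces IL5 at 819 bp, LIG3 faces CCT6B at 566 bp and WRN faces PURG at 73 bp, also with no mark at the repair gene. Among the marked pairs not given so far, BRCA1 faces NBR1 at 236 bp, PALB2 faces DCTN5 at 145 bp, XRCC3 faces ZFYVE21 at 226 bp and NTHL1 faces TSC2 at 101 bp. APEX1 faces OSGEP at 102 bp, PMS2 faces AIMP2 at 125 bp, XPC faces LSM3 at 196 bp, and the distances were 114 bp for TDG, 77 bp for LIG1, 120 bp for XRCC6 with DESI1, 365 bp for XRCC4 and 841 bp for MUTYH. Pairs were called at the outer start only. The canonical starts of BRCA1, RAD52, LIG4 and RAD51D lie 44.9, 40.4, 2.83 and 1.66 kb further in. The neighbours named for these genes do not start within 1 kb of those canonical starts. A peak between or beside the starts of a pair cannot be assigned to either gene from its position. H3K4me3 was found at 14 of these 25 starts (56%, 34.9 to 75.6%) and at 13 of the other 29 (44.8%, 26.4 to 64.3%). Over all genes the shares were 65.0% for paired starts and 34.1% for the others.

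The outer start was more than 1 kb from the start of the canonical transcript in 12 repair genes (22.2%), beside 16.6% of all genes. Of these 12, H3K4me3 was found at 3 outer and 7 canonical starts, and H3K27ac at 0 and 1. Over all 54 canonical starts, H3K4me3 was found at 31 (57.4%, 43.2 to 70.8%), beside 41.8% of the 19881 canonical starts of all genes, and the interval of the repair genes lay above that share. H3K27ac was found at 19 (35.2%, 22.7 to 49.4%), beside 25.5%. Neither mark was found at 19 canonical starts (35.2%, 22.7 to 49.4%), beside 53.3%, which lay above the interval. Among canonical windows with a CpG ratio of at least 0.6, H3K4me3 was found at 58.8% in repair genes and 57.3% in all genes. The part of CpG content in the shares at canonical starts was not tested. RAD54L, NBN, XRCC5, XRCC1, MSH6 and DDB1, with no mark at the outer start, had one at the canonical start, DDB2 had H3K4me3 there beside its H3K27ac, and LIG4, MUTYH and FANCC had their mark at the outer start only. The 16 genes without a peak within 1 kb of either start were CHEK1, CHEK2, BRCA2, RAD51C, RAD51D, RAD52, RAD50, LIG3, PARP2, OGG1, ERCC1, ERCC2, ERCC5, FANCD2, FANCI and WRN.

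The genes around the repair genes differed by the marks at the repair gene itself. For each repair gene, the other protein-coding starts between 10 kb and 1 Mb away were counted. Around the 32 genes with any mark the median share of such starts with H3K4me3 was 44.4%, and around the 22 with neither it was 26.5%. For H3K27ac the medians were 30.4% and 16.7%. No H3K27ac-marked start lay in the neighbourhood of 5 of the 22 unmarked genes, which were RAD51D, XRCC1, LIG3, ERCC5 and WRN, and of 2 of the 32 marked ones. Some neighbourhoods overlap, such as those of RAD51D and LIG3, of OGG1 and FANCD2, of ERCC1 and ERCC2 and of PARP2 and APEX1. The ranges overlapped. Of the unmarked genes, MSH6, RAD50, CHEK1 and FANCI had H3K4me3 at 80%, 66.7%, 52.9% and 50% of the surrounding starts, above the median of the marked genes. Of the marked genes, ERCC6, FANCC, PALB2, APEX1 and XPC had it at 10%, 11.1%, 18.8%, 22.2% and 25%, below the median of the unmarked ones. The same split was not made for all marked and unmarked protein-coding genes, so the difference cannot be read as particular to repair genes. The part of local copy number and of read depth in this difference was not tested.

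**Figure D4:**
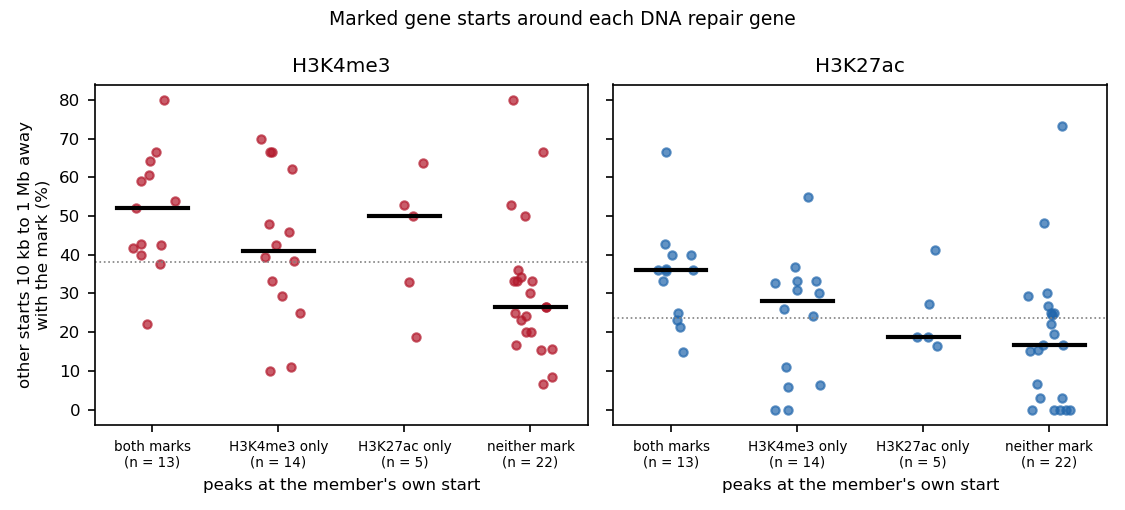
Share of the other protein-coding starts 10 kb to 1 Mb from each DNA repair gene that carried the mark, in percent, by the marks at the gene's own outer start. Points are genes, bars are medians and the dotted line is the share over all protein-coding starts (38.2% for H3K4me3 and 23.6% for H3K27ac), and the bar for neither mark lies under that line in both panels.

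Over the whole gene with 10 kb of flank on either side, H3K4me3 was found in 40 of 54 repair genes (74.1%, 60.3 to 85.0%), beside 56.8% of all protein-coding genes, which lay under that interval. H3K27ac was found in 32 (59.3%, 45.0 to 72.4%), beside 48.9%. Neither mark was found in 10 (18.5%, 9.25 to 31.4%), beside 35.3%, which lay above it. These 10 were CHEK2, BRCA2, RAD51C, LIG3, PARP2, ERCC1, ERCC2, ERCC5, FANCD2 and WRN. Longer genes have a larger window, and the 54 genes ran from 2.58 kb for APEX1 to 910 kb for RAD51B, with a median of 45.5 kb, beside 27.2 kb over all protein-coding genes. The part of gene length in the higher shares over these windows was not tested. The windows held 95 H3K4me3 peaks and 94 H3K27ac peaks, which was 1.60 and 1.58 per 100 kb, beside 1.5 and 1.61 over all genes.

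RAD51B alone held 35 of these 94 peaks of H3K27ac and 9 of these 95 of H3K4me3, and without it the densities were 1.72 for H3K4me3 and 1.18 for H3K27ac. Of its 35 H3K27ac peaks, 10 lay in the canonical transcript, which spans 658 kb, and 23 between the end of that transcript and the outer end of the gene. The longest run, of peaks no more than 10 kb apart, held 10 peaks over 23.2 kb at chr14:69150638-69173871, with a highest value of 5.46 and a widest peak of 1133 bp. The highest H3K27ac value of the gene was 7.83, in an intron at chr14:68699008-68699277. NTHL1 followed with 11 H3K27ac and 7 H3K4me3 peaks in a gene of 8.05 kb, with 5 of the 11 beyond its 3′ end, and FANCA with 9 and 7, with 5 of the 9 beyond its 3′ end and 4 upstream. APEX1 and PMS2 had 3 H3K27ac peaks each, of which 2 in each lay outside the gene beyond 1 kb of its start. Away from the annotated starts of the repair gene itself and of protein-coding neighbours, 63 H3K27ac peaks lay in the windows of 18 repair genes. RAD51B alone held 34 of these 63. For H3K4me3 there were 27 such peaks in the windows of 15 genes. Starts of noncoding genes were not considered in these counts.

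**Figure D5:**
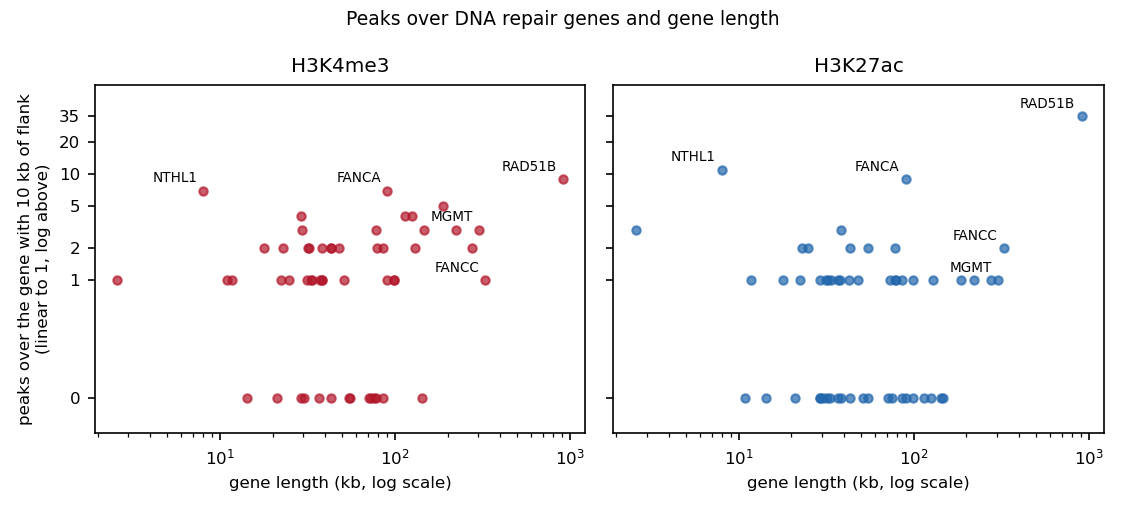
Number of peaks over each of the 54 DNA repair genes with 10 kb of flank against gene length in kb on a log scale, with the vertical axis linear to 1 and logarithmic above. RAD51B, the longest gene, has 35 H3K27ac and 9 H3K4me3 peaks, and the short gene NTHL1 has 11 and 7.

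The widest H3K4me3 peaks at repair gene starts were those of XRCC3 (893 bp), ATR (742 bp), PRKDC (742 bp), XRCC6 (646 bp) and ATM (629 bp). The widest H3K27ac peaks were those of RAD51B (631 bp), ERCC4 (592 bp), FANCA (493 bp), NTHL1 (479 bp) and XRCC3 (462 bp). XRCC3 was the only gene in both groups.

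Short motifs were searched on both strands in the 300-base windows of the canonical starts, by their letters only. The E2F-type motif TTTNNCGC was found in 15 of 54 windows (27.8%, 16.5 to 41.6%), beside 8.78% of all 19881. These were the windows of CHEK2, ERCC6, FANCA, FANCC, FANCD2, LIG1, MSH3, MSH6, NBN, PMS2, RAD51B, WRN, XPC, XRCC2 and XRCC6. The ETS-type motif CCGGAAG was found in 18 (33.3%, 21.1 to 47.5%), beside 14.1%, and TGACGT, the core of the cyclic AMP response element, in 13 (24.1%, 13.5 to 37.6%), beside 9.50%. The NRF1-type motif GCATGCGC was found in 7 (13.0%, 5.37 to 24.9%), beside 4.27%. GGGCGG was found in 38 (70.4%), beside 61.4%, CCAAT in 22 (40.7%), beside 36.0%, and ATGGCGG in 3 (5.56%), beside 7.85%. TATAAA was found in 0 of 54 (interval up to 6.60%), beside 9.62%. In the windows of the outer starts the E2F-type motif was found in 7 (13.0%), beside 8.04%. TATAAA was found there in 3 (5.56%, 1.16 to 15.4%), those of MSH6, NBN and RAD52, beside 10.9% of all outer windows. No motif contains another, and a match is a description of the letters and not a site. All of the motifs but CCAAT and TATAAA contain a CpG. Canonical windows with a CpG ratio of at least 0.6 were 51 of 54 in repair genes, beside 13437 of 19881 over all genes. The part of CpG content in the motif shares was not tested.

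A further 74 genes of the same pathways gave a comparison within DNA repair. H3K4me3 was found at 45 of their outer starts (60.8%, 48.8 to 72.0%), beside 38.2% of all protein-coding starts, and H3K27ac at 29 (39.2%, 28.0 to 51.2%), beside 23.6%. Both marks occurred at 24 (32.4%, beside 18.6%), H3K4me3 only at 21 (28.4%, beside 19.6%) and H3K27ac only at 5 (6.76%, beside 4.99%). Neither was found at 24 (32.4%, 22 to 44.3%), beside 56.8%. The shares over all starts lay under the intervals for each mark and above that for neither. The intervals of the 74 genes overlapped those of the 54 genes for each mark and for neither. The checkpoint group held H3K4me3 at 11 of 14 starts, among them TOPBP1, RAD17 and MDC1 with both marks, beside 2 of 4 in the set. Homologous recombination held it at 9 of 15, beside 4 of 10, base excision repair at 4 of 11, beside 6 of 12, and nucleotide excision repair at 6 of 11, beside 4 of 10. Non-homologous end joining held it at 4 of 6, beside 4 of 5, the Fanconi anaemia pathway at 5 of 10, beside 2 of 4, and the RecQ helicases at 3 of 3, beside 1 of 2. A protein-coding gene on the opposite strand started within 1 kb of the outer start in 29 of the 74 (39.2%), beside 13.3% of all genes.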

How the data were processed

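Peak lists of 2 libraries of H2087 cells, 1 for H3K4me3 and 1 for H3K27ac, were used. According to the submitters' processing notes, the tools included Bowtie 1.1.1 and MACS2 2.1.0, the genome was hg19, and ChIPseeker 1.6.6 assigned genes, an assignment not used here. The last column of the deposited lists has no header and was read, from its numbers, as the −log10 of a q-value per summit, as written by the authors' peak calling. Its minimum was 1.306 for H3K4me3 and 1.303 for H3K27ac, beside 1.301 for a q of 0.05. It was compared within a list only, since it grows with depth. Entries with the same interval were joined into 1 peak with the largest of their values, which gave 18585 H3K4me3 peaks from 20282 entries and 24096 H3K27ac peaks from 25275. The depth of the libraries is unknown here.

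Gene positions came from GENCODE 44 mapped to GRCh37, and positions are 1-based on hg19. The canonical transcript is the Ensembl canonical one. Of 20163 protein-coding genes, 19881 had a canonical start. Shares have exact Clopper-Pearson 95% intervals for counting error, with genes treated as independent. The members, pathways, further repair genes and motifs were chosen with earlier results of these data known, and the cell type genes after the lists had been seen. Named with values were all members without a mark or with H3K27ac only, the highest value of each mark in each pathway, the 5 widest peaks of each mark, the 5 genes with most H3K27ac peaks, and all members with a neighbour on the opposite strand. Some items that this rule selects are not reported here. Other settings tried were the peaks at or above the median value, the removal of peaks under 200 bp, merging within 1 kb, other distances and flanks, and other definitions of the start. Calculations used Python 3.11.15, NumPy 2.4.6 and SciPy 1.17.1, and the placement of peaks at starts was tested on simulated data.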

Additional observations from a re-analysis of the deposited data

How the results depend on the processing

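Of 80 values under alternative settings for 12 results, 74 stayed within 1.5 times the reported value. The other 6 were these. With the upper part of each list only, H3K27ac was found at 8 repair gene starts in place of 18 and both marks at 6 in place of 13, and the median highest H3K27ac value was 4.29 in place of 2.42, since the weaker peaks were removed. With the starts of all transcripts, neither mark was found in 14 genes in place of 22. With no flank, H3K27ac was found over 19 genes in place of 32. With peaks of the same mark within 1 kb merged, the median width of H3K4me3 peaks at the starts was 742 bp in place of 399 bp, since neighbouring peaks were joined. No paired analysis was possible because the marks had a single library each, and for the same reason none was left out in turn. Local copy number, read depth and the match of peaks to 1 of 2 neighbouring genes limit all counts of marked and unmarked starts, and their part was not tested. A missing peak is not a missing mark.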
